A study of Mus musculus with 9 samples.

Results

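Oxidative phosphorylation is carried by 5 protein complexes of the inner mitochondrial membrane. Complexes I to IV pass electrons from NADH and succinate to oxygen and build a proton gradient, and complex V, the ATP synthase, uses that gradient to make ATP. Most subunits are encoded in the nucleus and imported, whereas a small core set is transcribed and translated inside the mitochondrion, so complexes I, III, IV and V need both genomes and complex II needs the nuclear one alone. In the testis, spermatogonia are known for relying largely on glycolysis, and several complex IV subunits have isoforms made mainly in germ cells.

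The genes described here were chosen by symbol: the Nduf subunits of complex I, Sdha to Sdhd, the Uqcr genes, Cox4 to Cox8, the Atp5 genes and the mitochondrial mt-Nd, mt-Cytb, mt-Co and mt-Atp genes, leaving out 6 genes whose symbols carry a pseudogene suffix. This gave 97 of the 46078 genes counted, of which 84 were nuclear and 13 mitochondrial. By complex there were 35 nuclear and 7 mitochondrial genes for complex I, 4 nuclear genes for complex II, 8 nuclear and 1 mitochondrial for complex III, 20 nuclear and 3 mitochondrial for complex IV, and 17 nuclear and 2 mitochondrial for complex V. The symbol rule also took in Cox6c2, a processed copy of Cox6c, and Atp5s and Cox7a2l, which are associated factors rather than core subunits, while Ndufa4 was placed with complex IV.

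RNA was sequenced from EGFP-SSCs, a wild-type mouse spermatogonial stem cell line that carries EGFP, in 3 groups of 3 libraries that the labels call biological replicates. The 0 h cells were kept on mitomycin C-treated embryonic fibroblasts in SSC medium with GDNF, bFGF and EGF. The 24 h and 48 h cells were mixed with an equal number of somatic cells from neonatal testes of busulfan-exposed mice. Their medium held serum replacement, BMP-4, BMP-7, retinoic acid, activin A, testosterone, FSH and pituitary extract. The paper reports flow sorting of SSCs from the culture stages before sequencing, with GFP-negative fibroblasts as the control. Time, medium, supporting cells and hormones thus changed together between 0 h and the later groups and cannot be told apart, and all cells came from 1 line. Comparing 24 h and 48 h with 0 h asks how the transcripts change as SSCs enter differentiation in vitro, and 48 h with 24 h asks what changes between the co-cultured groups.

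Each library held 16825251 to 22201892 counts, and levels are given as CPM, counts scaled to a common library size by the trimmed mean of M-values. The 8 germ cell markers summed to 1898 to 2946 CPM at 0 h, 2618 to 2815 at 24 h and 2785 to 3003 at 48 h. Of these 8, 7 passed the filter on low counts and Dppa3 did not. At each later time 2 of the 7 were called higher, 0 lower, and 5 were not called. Dazl was uneven at 0 h, where it read 1351, 831 and 421 CPM in replicates 1, 2 and 3, against 596 to 821 at 24 h and 633 to 882 at 48 h. Sohlh1, a factor of differentiating spermatogonia, was called higher at both later times. Among markers of other testicular cells, the summed level of the 7 stromal and fibroblast genes (led by the collagens, which feeder cells also make) ranged from 311 to 397 CPM at 0 h, from 2112 to 2443 at 24 h and from 2835 to 3127 at 48 h. The 9 Sertoli markers summed to 20.2 to 24.1 CPM, then 57.7 to 94.7, then 94.3 to 109.7, and 6 of the 7 tested were called higher at each later time, while Sox9 was called lower at 24 h (-0.80), with Rhox8 and Fshr at 0 counts at 0 h. The 6 myoid markers ranged from 13.8 to 15.6, from 146 to 208 and from 263 to 321 CPM, and the 7 Leydig markers from 4.59 to 7.00, from 28.7 to 44.8 and from 29.1 to 37.3 CPM, with Hsd3b1 and Insl3 at 0 at 0 h and Lhcgr at 0 at 24 h. The 4 endothelial markers summed to 43.3 to 47.3 CPM, then 14.4 to 18.7, then 12.2 to 12.8, and the 5 macrophage markers to 15.5 to 18.3, then 6.21 to 10.1, then 6.34 to 9.22. Called higher and lower were 4 and 1 of the 7 stromal genes, 5 and 0 of the 6 myoid genes, and 1 and 2 of the 4 endothelial genes, both at 24 h and at 48 h. The part of these cells in the results below was not tested, and in bulk RNA a change in the share of one cell type and a change in RNA per cell cannot be told apart.

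Replicate 1 at 0 h stood apart for the nuclear subunit genes. Over the 81 nuclear members with at least 10 counts in every library, its level lay a median of -0.47 log2 units from the mean of the other 2 libraries at 0 h, and it was the lower one for 75 of them. The same median over all 15018 genes with such counts was -0.05. The distance was larger for short transcripts: the 40 nuclear members with a longest transcript under 1000 bases had a median of -0.69 and the 41 longer ones -0.30, and all genes under 1000 bases had -0.30 against 0.11 for those over 4000. Replicate 3 at 0 h moved the other way, with 0.32 for all genes under 1000 bases and -0.17 for those over 4000. Counts of calls, medians and the leading genes against 0 h are therefore also given without replicate 1. That fit keeps replicate 3, and its nuclear medians against 0 h were the lowest of the fits without 1 library. A log2 ratio under -1 was found for 1351 genes in replicate 3 and 434 in replicate 1. Without replicate 3 in its place, the log2 fold change at 48 h was -0.22 for Atp5b and -0.25 for Cox4i1, neither called. Calls made only without replicate 1 thus depend on which 0 h library is left out.

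**Figure D1:**
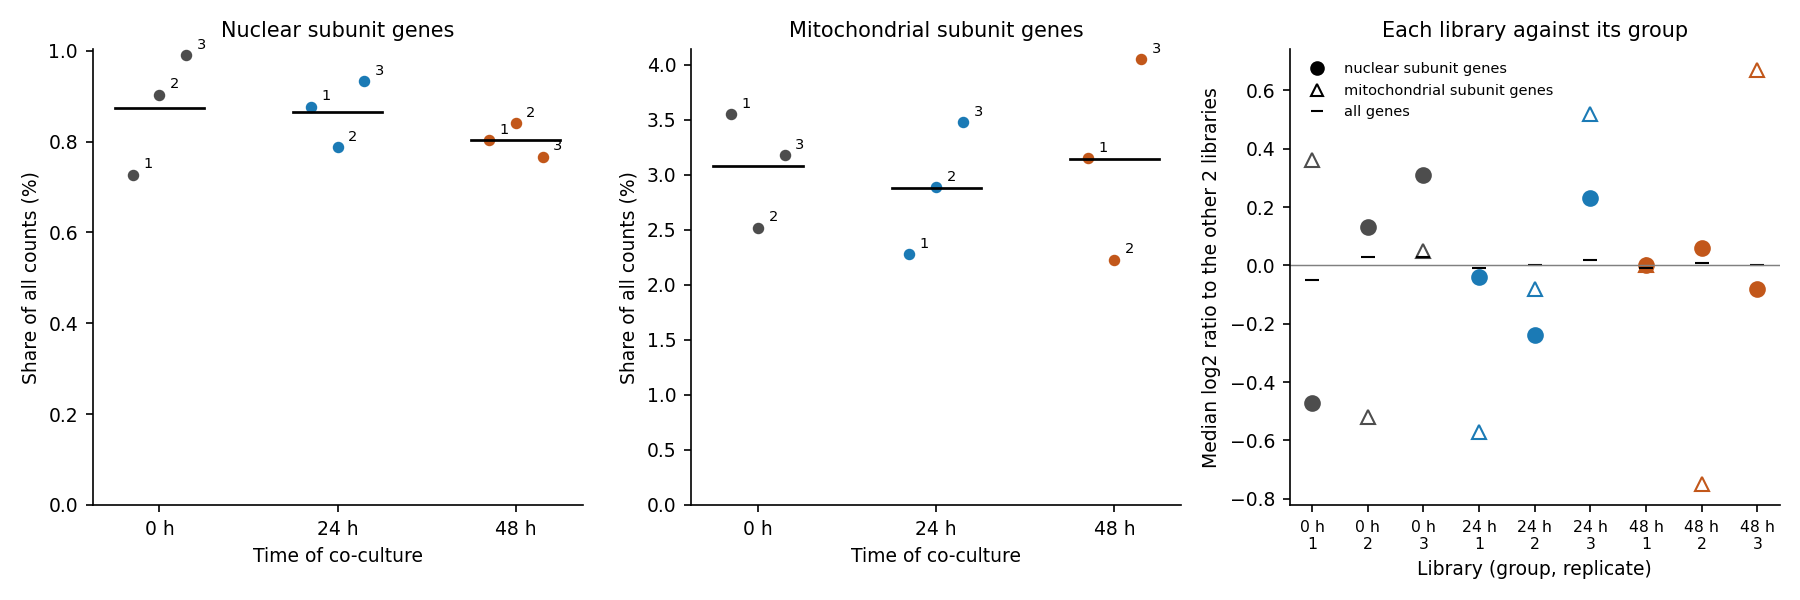
Left and middle: share of all counts (%) taken by the nuclear and by the mitochondrial subunit genes in each library, with the replicate number beside each point and a bar at the group mean. Right: median log2 ratio of each library to the mean of the other 2 libraries of its group, for nuclear subunit genes (circles), mitochondrial subunit genes (triangles) and all genes (dashes). The nuclear circles of 0 h replicate 1 lie lowest, at -0.47, while the mitochondrial triangles spread from -0.75 to 0.67 over the libraries.

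As a whole, the subunit genes took a small share of the counts. The 84 nuclear genes held 0.873% ± 0.134 of the 0 h counts, 0.866% ± 0.0737 of the 24 h counts and 0.804% ± 0.0370 of the 48 h counts (SD, n = 3). The 13 mitochondrial genes held 3.08% ± 0.522, 2.88% ± 0.600 and 3.14% ± 0.910. The 3 groups overlapped in both sums. The summed mitochondrial level was 3.63 ± 1.11, 3.33 ± 0.644 and 3.95 ± 1.31 times the summed nuclear level (SD, n = 3), and single libraries ran from 2.59 to 5.27, with no separation between the groups.

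Both sets were abundant, but on very different scales per gene. Per kb of exon, the 3 mitochondrial complex IV genes, which encode its core, averaged 4853 to 7875 CPM per kb at 0 h, while the median nuclear complex IV gene stood at 45.4 CPM per kb. The highest nuclear gene per length in each complex at 0 h was Ndufb9 for complex I (162 CPM per kb), the flavoprotein gene Sdha for complex II (68.2), the hinge protein gene Uqcrh for complex III (88.3), Cox6a1 for complex IV (368) and Atp5b, the catalytic beta subunit of the ATP synthase, for complex V (279). Divided by the longest transcript in place of all exon bases, the highest were Ndufa7 for complex I and Cox4i1 for complex IV, and the other 3 were as before. With all libraries, none of the 5 genes passed the test in any comparison with edgeR, while DESeq2 called Sdha at 24 h and Atp5b at 48 h. For example, Atp5b read 1060, 1133 and 1355 CPM at 0 h, 948, 854 and 1024 at 24 h and 918, 946 and 902 at 48 h, so both later groups lay below the 0 h group without passing the test (log2 fold change -0.31 ± 0.13 (SE), adjusted p = 0.132 at 24 h, and -0.36 ± 0.12, adjusted p = 0.0596 at 48 h, edgeR, quasi-likelihood, adjusted by Benjamini-Hochberg over every gene tested). For Sdha, the 3 libraries at 24 h read 351, 334 and 375 CPM against 251, 291 and 302 at 0 h, all higher and again without passing the test (log2 fold change 0.34 ± 0.11, adjusted p = 0.0575, edgeR). Without 0 h replicate 1, edgeR called Uqcrh lower at 24 h (-0.33, adjusted p = 0.0371), and Ndufb9 (-0.39, adjusted p = 0.0318) and Atp5b (-0.43, adjusted p = 0.025) lower at 48 h. Sdha and Cox6a1 were not called at either time in that fit.

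Between 0 h and 24 h few nuclear subunit genes were called with all libraries. Of 84 nuclear genes, 82 passed the filter on low counts and 9 were called at an adjusted p of 0.05 or less (11%), 2 higher and 7 lower, whereas 25.5% of all 17592 genes tested were called, 11.4% higher and 14.2% lower. The share of members called was thus below that of all genes. The members' median fold change on the log2 scale was -0.09, beside 0.01 for all genes, and 54 of the 82 values were negative. By complex, calls numbered 1 higher and 1 lower for complex I, 1 lower for complex II, none for complex III, 1 higher and 3 lower for complex IV and 2 lower for complex V. For complex III, 0 of its 8 nuclear genes reached an unadjusted p under 0.05 in edgeR, and DESeq2 called 0. On weaker or other criteria, 19 nuclear genes had an unadjusted p under 0.05 (37.0% of all genes), 5 lay wholly above and 12 wholly below the 0 h group (21.2% and 22.2% of all genes, 43.4% together), and 0 were called with a change over 2-fold (13.2% of all genes). Among genes with at least 10 CPM in 1 group, 8 of 76 nuclear members (10.5%) and 28.3% of all were called.

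By 48 h the number of nuclear genes called against 0 h was 20 of 82 (24.4%), 2 higher and 18 lower, beside 31.6% of all 17755 genes tested (13% higher and 18.5% lower). The median was -0.20, beside 0.02 for all genes, and 62 of the 82 values were negative. Complex I gave 2 higher and 8 lower calls, complex II 2 lower, complex IV 5 lower and complex V 3 lower. Complex III gave 0 in edgeR, where 2 genes had an unadjusted p under 0.05, and 1 in DESeq2, Uqcrb. Over all complexes 30 nuclear genes had an unadjusted p under 0.05 (42.1% of all genes), 4 lay wholly above and 26 wholly below the 0 h group (22.9% and 25.4% of all genes, 48.3% together), and with at least 10 CPM in 1 group 20 of 76 (26.3%) were called, against 35.0% of all genes. Changes were small in size: Ndufv3 alone was called with a change of more than 2-fold, whereas 16.7% of all genes were. The calls at 24 h and 48 h had 7 nuclear genes in common, namely Atp5c1, Atp5h, Cox5a, Cox7a2, Ndufa6, Sdhc and Ndufb7, which is 77.8% of those called at 24 h and 35% of those called at 48 h, and both comparisons share the 0 h libraries.

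From 24 h to 48 h, 10 of 82 nuclear genes were called (12.2%), 1 higher and 9 lower, beside 21.3% of all 17499 genes (8.61% higher and 12.7% lower). The median was -0.14, beside -0.00 for all genes, and 65 of the 82 values were negative. Complex I gave 4 lower calls, complex II 1 lower, complex III 1 lower, complex IV 1 higher and 1 lower, and complex V 2 lower. An unadjusted p under 0.05 was found for 25 nuclear genes (36.4% of all genes), 3 lay wholly above and 19 wholly below the 24 h group (18.6% and 21.0% of all genes, 39.6% together), 0 were called with a change over 2-fold (2.97% of all genes), and 9 of 75 with at least 10 CPM in 1 group were called (12%, against 27.9% of all genes). Over the 3 comparisons edgeR called 25 nuclear genes at least once and 57 never. DESeq2 called some of these 57, among them Atp5g1 and Sdha at 24 h and Atp5b, Cox4i1, Cox4i2, Ndufa12 and Uqcrb at 48 h. In the order of the 3 group means, 41 of the 82 nuclear genes (50%) stepped down from 0 h to 24 h to 48 h, against 24.3% of all 18189 genes tested in any comparison, and 5 (6.1%) stepped up, against 24.5%.

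The counts moved with single libraries and with scaling. For 24 h against 0 h, the 9 calls became 20 without 0 h replicate 1 (29.3% of all genes called), 3 without 0 h replicate 2 (16.3%), 2 without 24 h replicate 1 (14.4%), 2 without 24 h replicate 2 (14.4%) and 4 without 24 h replicate 3 (15.6%). For 48 h against 0 h, the 20 calls became 43 without 0 h replicate 1 (2 higher and 41 lower, with 38.7% of all genes called), 12 without 0 h replicate 2 (22%), 3 without 48 h replicate 1 (19.0%), 7 without 48 h replicate 2 (20.9%) and 4 without 48 h replicate 3 (19.7%). Without 0 h replicate 1 the median of the nuclear genes was -0.23 at 24 h and -0.38 at 48 h, and all of the 9 and 20 genes called with it were among those called. The calls without it were 3 higher and 17 lower at 24 h (13.2% and 16.1% of all genes) and 2 higher and 41 lower at 48 h (17.6% and 21.1%). The share of members called then lay above that of all genes at 48 h, while at 24 h it stayed below. Without 0 h replicate 3 the median at 24 h turned to 0.04, with 7 higher and 5 lower calls (17% and 16.4% of all genes). At 48 h it was -0.05, with 4 higher and 14 lower calls (16.8% and 18.6% of all genes). For 48 h against 24 h, the 10 calls became 5, 21 and 3 without 24 h replicates 1, 2 and 3 (11.4%, 15.5% and 15.3% of all genes called), and 3 and 5 without 48 h replicates 1 and 3 (10.4% and 12.6%). With library size as the only scaling, 8 nuclear genes were called by 24 h (5 higher, 3 lower) and 16 by 48 h (4 higher, 12 lower), with 27.3% and 32.5% of all genes called. The median of all genes moved to 0.118 at 24 h and 0.127 at 48 h. The nuclear medians were 0.02 and -0.09, so that their distance from the median of all genes stayed negative.

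Without 0 h replicate 1 there were more calls for complexes I, III and V at both times and for complex IV at 48 h. By 24 h there were 9 calls for complex I, 1 each for complexes II and III, 4 for complex IV and 5 for complex V, and by 48 h 19, 2, 3, 10 and 9. Among the leading genes, the log2 fold change at 24 h and 48 h without that library was -0.58 and -0.83 for Atp5c1, -0.59 and -0.67 for Atp5h, -0.73 and -0.78 for Cox5a, -0.37 and -0.50 for Sdhc and -0.86 and -0.71 for mt-Nd3. The values of Ndufb7 were 0.62 and 0.61 and that of Cox6b2 at 24 h was 0.74, and Uqcrq became a lower call at 48 h (-0.43, adjusted p = 0.0239, edgeR). With 0 h replicate 3 left out in its place, Uqcrq stood at 0.02 at 48 h and was not called, while Atp5c1 (-0.70) and Cox5a (-0.59) were still called lower.

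**Figure D2:**
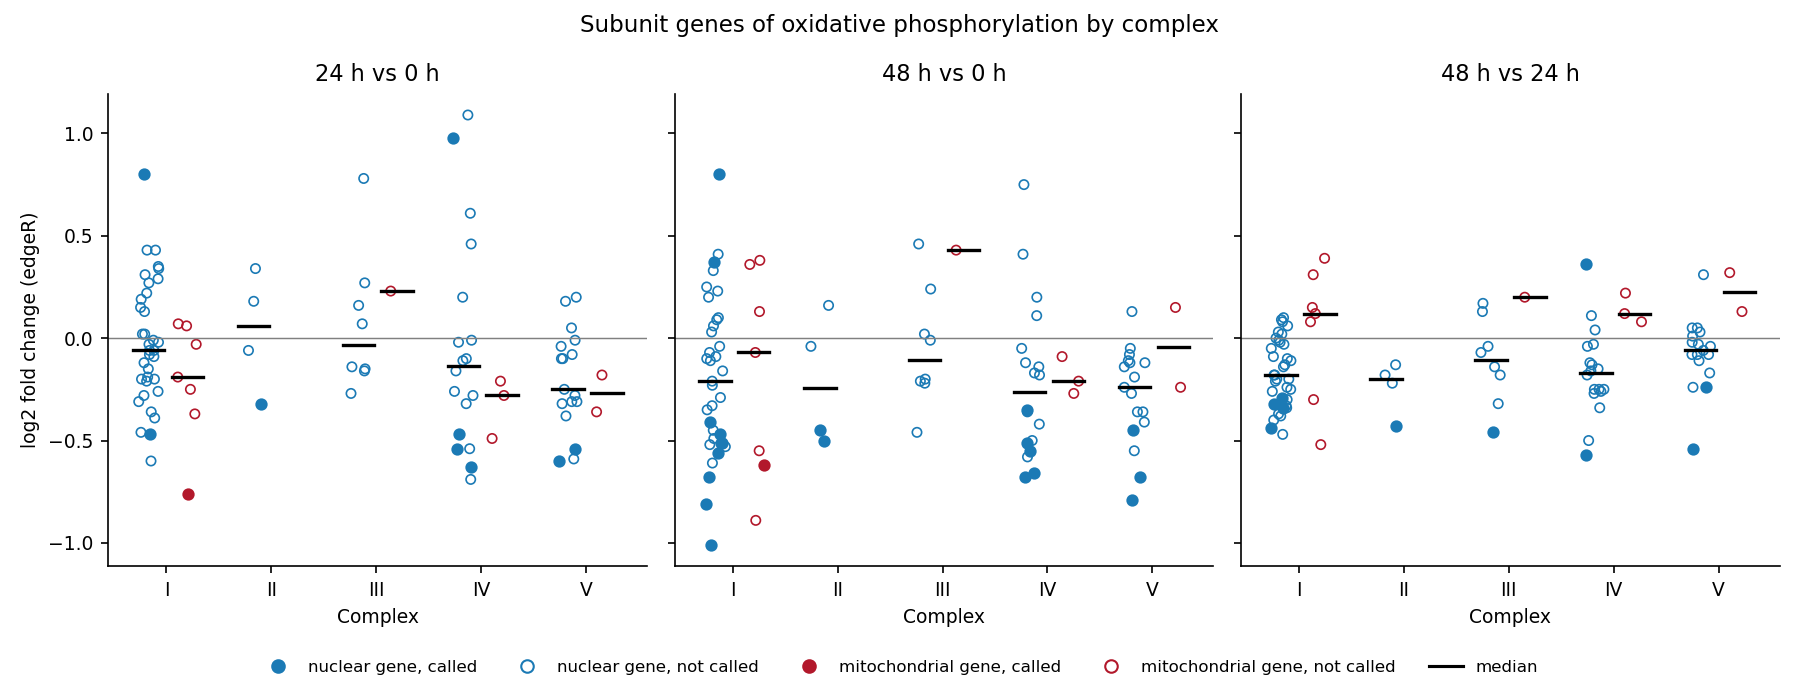
log2 fold change (edgeR) of each subunit gene tested, by complex, for the 3 comparisons, with nuclear genes in blue, mitochondrial genes in red, filled points for genes called at an adjusted p of 0.05 or less and bars at the median. At 48 h against 0 h, 18 of the 20 filled blue points lie below 0, and 1 red point, mt-Nd3, is filled in each comparison with 0 h.

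In complex V, the 3 genes called lower against 0 h with all libraries encode parts of the central and the peripheral stalk of the ATP synthase. The 9 genes called at 48 h without 0 h replicate 1 also took in others, among them Atp5b, Atp5g1 and Atp5g2. Atp5c1 (chr2:10056016-10080510, minus strand, GRCm38) encodes the gamma subunit, the rotating shaft of the F1 part. It read 200.3, 208 and 232 CPM at 0 h, 142, 139 and 154 at 24 h and 118, 124 and 128 at 48 h. Each group lay wholly below the one before it. The log2 fold change was -0.54 ± 0.10 (SE) at 24 h (adjusted p = 0.00793, edgeR), -0.79 ± 0.10 at 48 h (adjusted p = 0.00122) and -0.24 ± 0.06 from 24 h to 48 h (adjusted p = 0.0275).

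Atp5h (chr11:115415689-115419962, minus strand) encodes subunit d of the peripheral stalk, which holds the F1 part still. Its 0 h libraries were nearly level at 134, 130.5 and 133 CPM, and fell to 85.7, 76.8 and 97.3 at 24 h and 91.4, 84.8 and 72.0 at 48 h, with no overlap between 0 h and either later group. The log2 fold changes were -0.60 ± 0.12 (adjusted p = 0.00833, edgeR) and -0.68 ± 0.12 (adjusted p = 0.00447), and the call stood in all 6 fits that left out 1 library at each time. Up to 28.1% of the 75-base windows of its transcript matched another gene's transcript, so some of its reads may have been counted elsewhere. Atp5j, subunit F6 of the same stalk, was called lower at 48 h only, from 60.4, 67.6 and 69.3 CPM to 46.7, 52.1 and 46.0 (-0.45 ± 0.11, adjusted p = 0.0231, edgeR), although 12.7% of its exon bases overlap Gabpa and it was not stated whether strand was used in counting.

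In 0 h replicate 1, nuclear members with a longest transcript under 1000 bases had a median of -0.69 log2 units to the other 2 libraries. Atp5k, which encodes subunit e of the membrane part, lay much lower than that in this library. It read 3.74 CPM there, against 43.9 and 37.8 in the other 2 libraries at 0 h, 32.8, 28.4 and 34.8 at 24 h and 21.9, 26.5 and 17.9 at 48 h. Neither comparison with 0 h passed the test (log2 fold change 0.18 ± 0.68 and -0.36 ± 0.70). Without 0 h replicate 1 the value at 24 h turned to -0.34 and was still not called (adjusted p = 0.1, edgeR), and that at 48 h was called (-0.88, adjusted p = 0.008), while the fall from 24 h to 48 h did (-0.54 ± 0.14, adjusted p = 0.0209, edgeR). The 3 genes for the c subunit of the rotor ring, which yield the same mature protein, did not pass the edgeR test in any comparison with all libraries, while DESeq2 called Atp5g1 at 24 h. Without 0 h replicate 1, edgeR called Atp5g1 (-0.78 and -0.74) and Atp5g2 (-0.58 and -0.66) lower at 24 h and 48 h. Atp5g3 (-0.28 and -0.39) was not called there. Their mean shares of the summed level per kb were 15.4%, 51.2% and 33.4% for Atp5g1, Atp5g2 and Atp5g3 at 0 h, 11.8%, 48.5% and 39.7% at 24 h and 12.9%, 48.4% and 38.7% at 48 h.

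**Figure D3:**
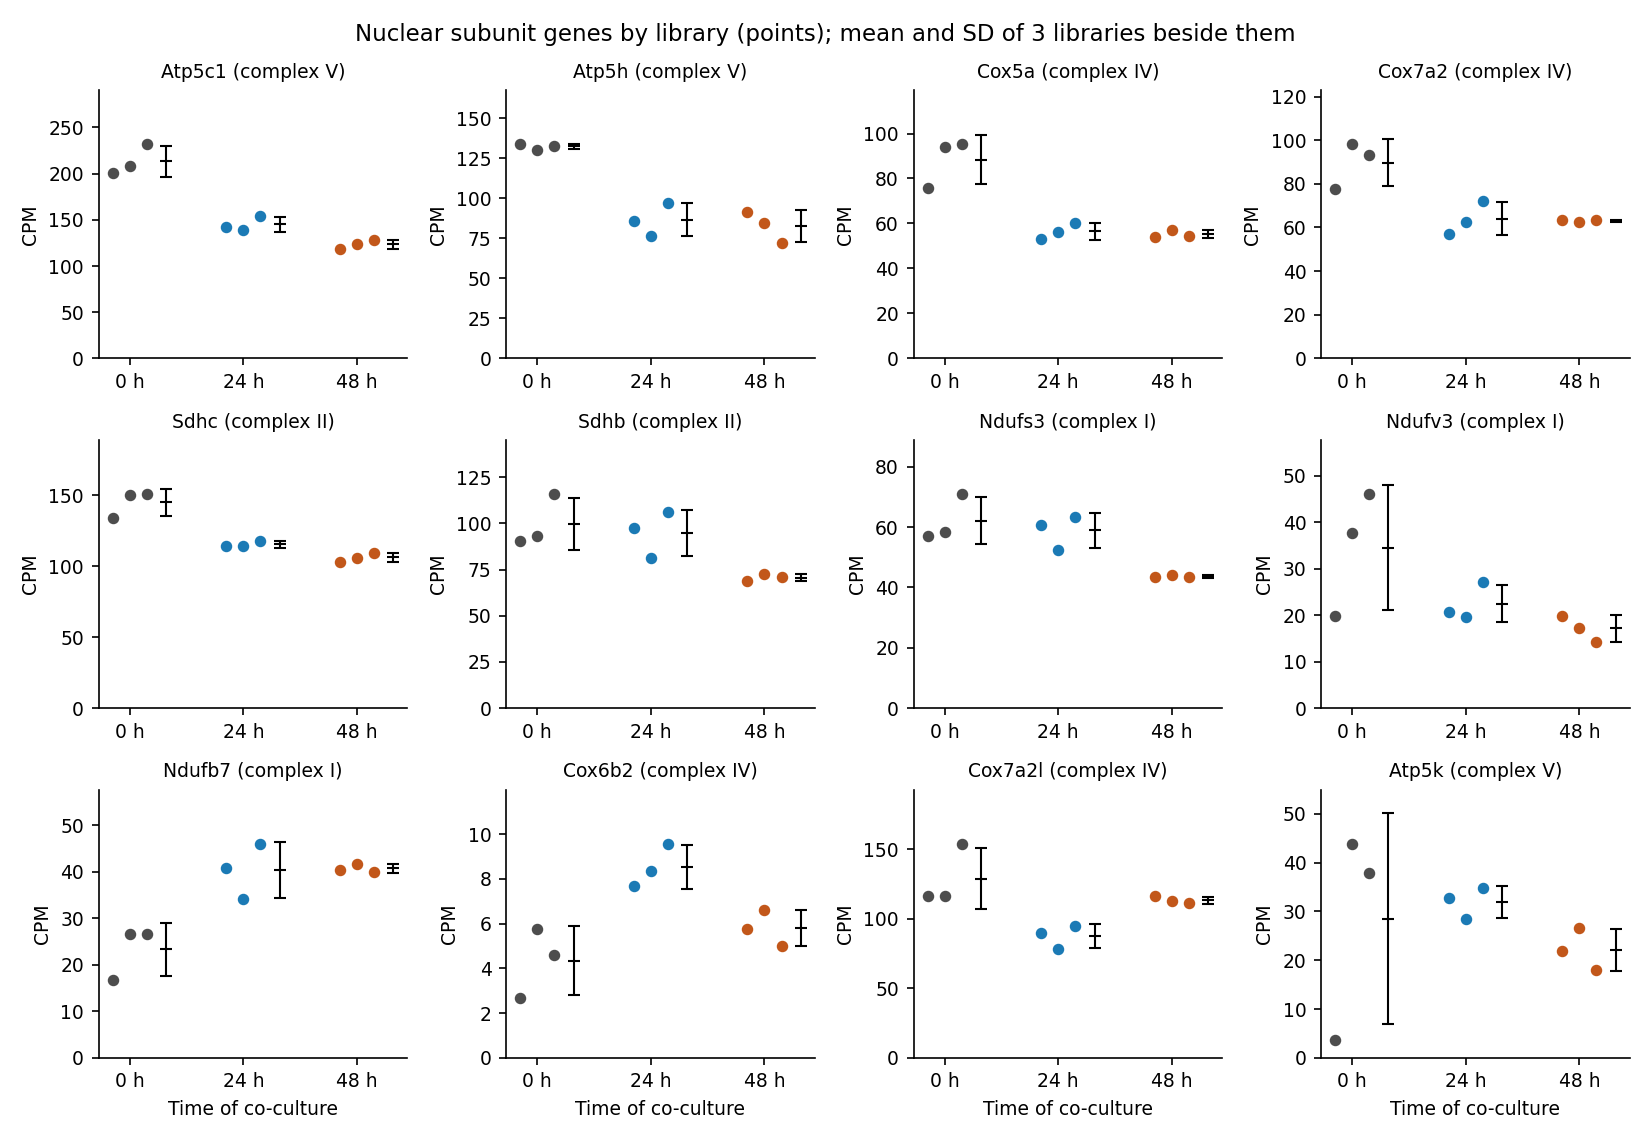
CPM of 12 nuclear subunit genes in each library (points, axis from 0), with the mean and SD of the 3 libraries of a group beside them. Atp5c1, Atp5h, Cox5a, Cox7a2 and Sdhc lie lower at both later times, Sdhb and Ndufs3 drop at 48 h, Ndufb7 lies higher at both later times, Cox6b2 peaks and Cox7a2l dips at 24 h, and Atp5k reads 3.74 CPM in 0 h replicate 1.

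Complex IV held the isoform pairs, and these moved in different ways. Cox5a (chr9:57521274-57532426, plus strand), one of the nuclear subunits that surround the catalytic core, read 75.7, 93.9 and 95.3 CPM at 0 h, 52.9, 56.1 and 60.3 at 24 h and 53.9, 57.2 and 54.6 at 48 h. Every co-cultured library was below every 0 h library. Its log2 fold change was -0.63 ± 0.12 at 24 h (adjusted p = 0.00902, edgeR) and -0.68 ± 0.12 at 48 h (adjusted p = 0.0055). Cox7a2, the broadly expressed form of subunit 7a, fell in the same way from 77.5, 98.2 and 93.0 CPM to 57.0, 62.7 and 72.0 and then 63.2, 62.4 and 63.2 (-0.47 ± 0.13 with an adjusted p of 0.0372 and -0.51 ± 0.12 with 0.0147, edgeR). Cox7a1, its heart and muscle form, stayed between 1.75 and 7.52 CPM and was not called.

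Cox7a2l, which encodes a related protein that joins complex IV to complex III in supercomplexes, followed another course. It read 116, 116 and 154 CPM at 0 h, dropped to 89.6, 78.0 and 95.0 at 24 h and returned to 116, 113 and 111 at 48 h. The fall to 24 h (-0.54 ± 0.15, adjusted p = 0.0328, edgeR) and the rise from 24 h to 48 h (0.36 ± 0.08, adjusted p = 0.0117) were both called, and it was the sole nuclear gene called higher from 24 h to 48 h.

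Cox6b2, the testis form of subunit 6b, was at low levels throughout, at 2.68, 5.76 and 4.59 CPM at 0 h, 7.66, 8.34 and 9.58 at 24 h and 5.76, 6.61 and 5.01 at 48 h. The 24 h libraries were above all others. It was called higher at 24 h (0.98 ± 0.28, adjusted p = 0.0369, edgeR) and lower from 24 h to 48 h (-0.57 ± 0.15, adjusted p = 0.0302). Cox6b1, the general form, was not called with all libraries, but without 0 h replicate 1 it was called lower at 48 h (-0.43, adjusted p = 0.0141, edgeR). The share of Cox6b2 in the summed level per kb was 2.51% ± 0.153 in the 0 h group, 4.93% ± 0.163 by 24 h and 3.72% ± 0.440 by 48 h (SD, n = 3), with no overlap between the groups. Cox7b2, the other testis form, in contrast made up most of its pair per kb of exon, with 68.6% ± 7.58, 65.2% ± 2.32 and 66.2% ± 2.28 of the summed Cox7b and Cox7b2 level. It was called lower at 48 h, from 31.4, 27.3 and 20.4 CPM to 16.8, 15.3 and 18.0 (-0.66 ± 0.18, adjusted p = 0.0267, edgeR), while Cox7b, at 26.9 ± 8.10, 21.4 ± 2.14 and 19.0 ± 0.408 CPM, was not. Before division by length, Cox7b2 was thus not ahead of Cox7b at 48 h, and its larger share rests on the exon lengths used. Without 0 h replicate 1 both were called lower at 48 h, Cox7b with -0.65 (adjusted p = 0.0249, edgeR) and Cox7b2 with -0.52 (adjusted p = 0.0371).

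With all libraries, the remaining isoforms were not called by edgeR in any comparison, while DESeq2 called Cox4i1 and Cox4i2 at 48 h. Without 0 h replicate 1, edgeR called Cox4i1 (-0.52, adjusted p = 0.017), Cox4i2 (-0.63, adjusted p = 0.0468) and Cox8c (-0.62, adjusted p = 0.0223) lower at 48 h. Cox6a1 (-0.25) and Cox8a (-0.31) were not called there. Cox4i1 held 97.9%, 98.3% and 98.1% of the summed level per kb with Cox4i2, the lung form, at 0 h, 24 h and 48 h. Cox8a held 91.6%, 91.2% and 92.7% beside the testis-enriched Cox8c at 8.12%, 8.67% and 7.19%. The heart and muscle forms Cox6a2 and Cox8b did not pass the filter on low counts, with at most 0.0997 and 0.561 CPM in any library, and were not tested. Cox7c and Cox6c, which encode small subunits, were called lower at 48 h (-0.55 ± 0.12, adjusted p = 0.0107, and -0.35 ± 0.10, adjusted p = 0.0341, edgeR). Cox6c2, the processed copy of Cox6c, was tested too and was not called with all libraries.

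Complex II, the succinate dehydrogenase that also serves the tricarboxylic acid cycle, was split between its 4 subunits. Sdhc, a membrane anchor (chr1:171127165-171150603, minus strand), read 134, 150 and 151 CPM at 0 h, 114, 114 and 118 at 24 h and 103, 106 and 109.6 at 48 h. The 3 groups did not overlap, and it was called lower at both times against 0 h (-0.32 ± 0.10, adjusted p = 0.0484, and -0.45 ± 0.10, adjusted p = 0.0119, edgeR). Sdhb, the iron-sulphur subunit (chr4:140961203-140979193, plus strand), held its level at 24 h and then fell, at 90.4, 93.1 and 116 CPM, then 97.3, 81.1 and 106, then 68.6, 72.7 and 70.7 (48 h against 0 h -0.50 ± 0.13, adjusted p = 0.0221; 48 h against 24 h -0.43 ± 0.09, adjusted p = 0.0117, edgeR). Sdhd, the second anchor, with means of 74.9, 83.9 and 72.6 CPM, was not called, nor was Sdha by edgeR.

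Complex I held both nuclear genes that were called higher at 48 h. Ndufb7 (chr8:83566671-83571626, plus strand), an accessory subunit of the membrane arm, read 16.8, 26.6 and 26.7 CPM at 0 h, 40.8, 34.2 and 46.1 at 24 h and 40.5, 41.7 and 40.0 at 48 h. All 6 co-cultured libraries were above the 0 h group. The log2 fold change was 0.80 ± 0.20 at 24 h (adjusted p = 0.0259, edgeR) and 0.80 ± 0.18 at 48 h (adjusted p = 0.0146), and 0.00 ± 0.10 between 24 h and 48 h. Ndufs1, the largest core subunit of the peripheral arm, was called higher at 48 h by a smaller margin, from 104, 107 and 85.4 CPM to 128, 129 and 126 (0.37 ± 0.12, adjusted p = 0.0497, edgeR).

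The lower calls of complex I lay in both arms. Ndufv1, the core subunit that binds FMN and takes electrons from NADH, read 151, 209 and 265 CPM at 0 h, 166, 140.4 and 176 at 24 h and 132, 137 and 120.1 at 48 h, and was called lower at 48 h (-0.68 ± 0.20, adjusted p = 0.0357, edgeR) and from 24 h to 48 h (-0.32 ± 0.09, adjusted p = 0.0327). Ndufv3, a small accessory subunit beside it, spread from 19.8 over 37.6 to 46.1 CPM at 0 h and read 19.9, 17.3 and 14.2 at 48 h. Its groups overlapped, and the call at 48 h (-1.01 ± 0.30, adjusted p = 0.0381) was lost in 5 of the 6 fits that left out 1 library. Ndufs3, a core subunit of the peripheral arm, dropped between 24 h and 48 h, at 57.1, 58.2 and 71.0 CPM, then 60.7, 52.5 and 63.4, then 43.5, 44.1 and 43.3. That fall (-0.44 ± 0.08, adjusted p = 0.006, edgeR) was called in all 6 fits without 1 library, although 71.8% of the windows of its transcripts also matched another gene's.

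In the membrane arm, Ndufb4 read 28.0, 33.1 and 44.4 CPM at 0 h, 26.7, 22.5 and 26.8 at 24 h and 21.4, 20.3 and 18.7 at 48 h, and the 48 h libraries were below all others. It was called lower against 0 h (-0.81 ± 0.18, adjusted p = 0.0131, edgeR) and against 24 h (-0.34 ± 0.10, adjusted p = 0.0336). Ndufa6, an accessory subunit, was called lower at both times (-0.47 ± 0.13 and -0.56 ± 0.12), and Ndufa7, Ndufb5 and Ndufs4 at 48 h (-0.51, -0.41 and -0.47). In complex III, which passes electrons from ubiquinol to cytochrome c, the single call was Uqcrq, at 68.7, 57.1 and 73.1 CPM at 24 h and 51.5, 47.3 and 46.7 at 48 h (-0.46 ± 0.10, adjusted p = 0.0103, edgeR). Its 0 h libraries read 36.2, 61.2 and 69.2 CPM and overlapped with both.

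The 13 mitochondrial genes hardly separated the groups. One of them, mt-Nd3, was called lower at 24 h and at 48 h (7.69%, beside 25.5% and 31.6% of all genes) and none from 24 h to 48 h (21.3% of all genes), where 0 also had an unadjusted p under 0.05 in edgeR and 0 were called by DESeq2. On the log2 scale their median change was -0.21 by 24 h, -0.09 by 48 h and 0.13 from 24 h to 48 h, beside 0.01, 0.02 and -0.00 for all genes. The sign of the first of these medians turned when 0 h replicate 1 was left out (0.02), that of the second when 48 h replicate 2 was (0.08), and that of the last when 24 h replicate 1 (-0.03) or 48 h replicate 3 (-0.09) was. With offsets for GC content and length the 3 medians were -0.25, -0.51 and -0.17, so the last turned, and with library size as the only scaling the second turned to 0.02.

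Their libraries varied together within each group. The lowest library of the 24 h group was replicate 1 for all 13 genes, the lowest of the 48 h group was replicate 2 for all 13, and at 0 h replicate 2 was lowest for 12. Over the 9 libraries, 48 h replicate 3 was highest for 8 of the 13. The median coefficient of variation within a group was 20.4%, 27.1% and 30.5% at 0 h, 24 h and 48 h for the mitochondrial genes, while that of the nuclear members narrowed from 21.0% over 11.8% to 6.51% and that of all genes from 17.3% over 8.47% to 8.25%.

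**Figure D4:**
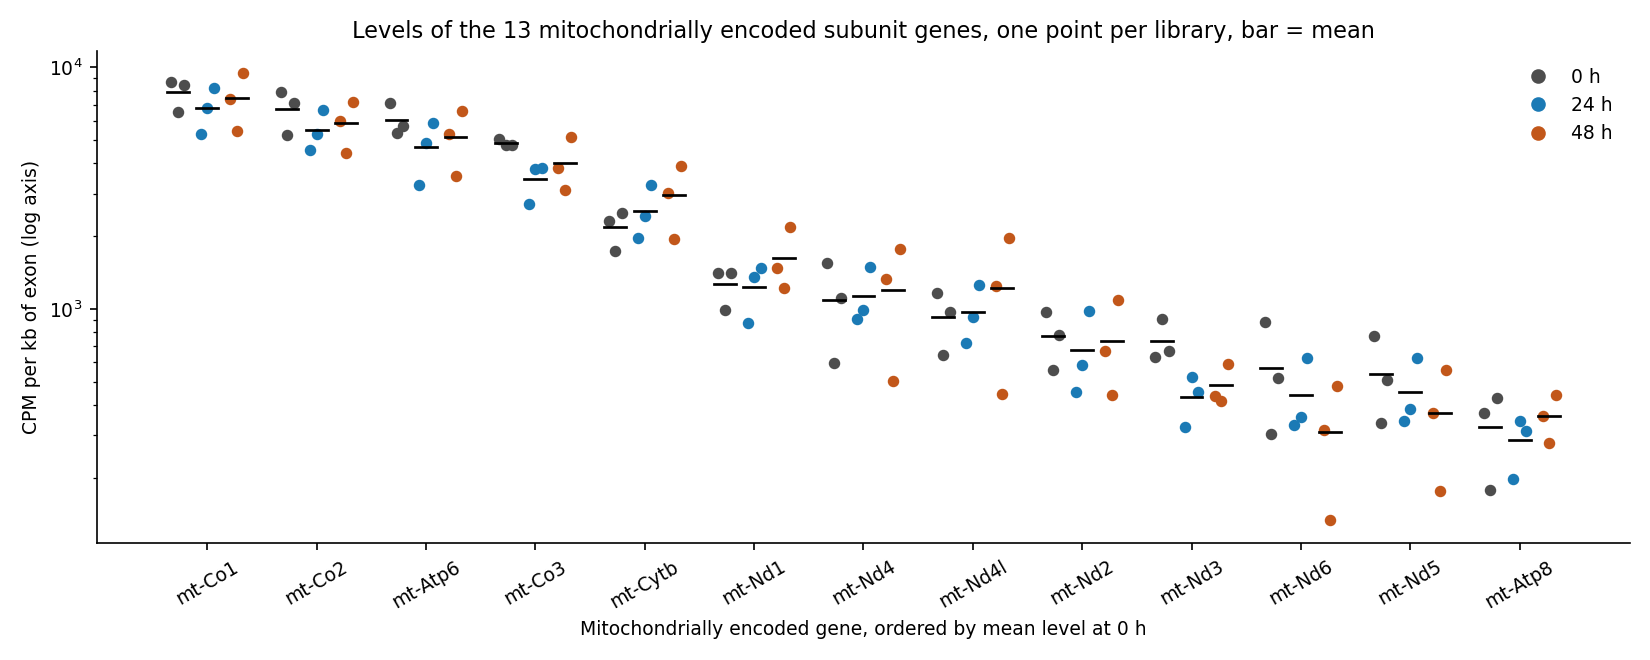
Level of the 13 mitochondrially encoded subunit genes in CPM per kb of exon (log axis), with 1 point per library, colours for the 3 groups and a bar at each group mean, ordered by the mean at 0 h. The points of the 3 groups overlap for most genes, and mt-Nd3 and mt-Co3 lie lower at 24 h in every library than at 0 h.

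mt-Nd3 encodes a small core subunit in the membrane arm of complex I. It read 221, 315 and 234 CPM at 0 h, 113, 181 and 157 at 24 h and 152, 145 and 206 at 48 h, so that both later groups lay below the 0 h group. The log2 fold change was -0.76 ± 0.20 (adjusted p = 0.0284, edgeR) and -0.62 ± 0.19 (adjusted p = 0.0402). With GC and length offsets it was not called at 24 h, where mt-Co3 was called instead. The call at 24 h was also lost without 0 h replicate 2, 24 h replicate 1 or 24 h replicate 3, and that at 48 h without 0 h replicate 2, 48 h replicate 1 or 48 h replicate 2.

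The counting of mt-Nd3 was uncertain because the nuclear genome holds near-identical copies of stretches of mitochondrial DNA. Its transcript differed at 1 of 345 aligned bases from Gm28438, a nuclear copy annotated on chromosome 1 in the GRCm38 annotation. The first 60 aligned bases are shown with that base in capitals, from chrM:9459-9518 on the plus strand and chr1:24613060-24613119 on the minus strand.
mt-Nd3: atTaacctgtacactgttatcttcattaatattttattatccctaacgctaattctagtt
Gm28438: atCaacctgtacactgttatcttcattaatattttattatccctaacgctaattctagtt
A read within this stretch can be told apart by that single base alone, and one that does not cover it matches both genes equally. How the deposited counts treated reads with several matches was not stated. Such copies were found for 11 of the 13 genes, all but mt-Nd1 and mt-Atp8, and together they held 57.4 to 62.6 counts per 100 mitochondrial counts at 0 h, 51.3 to 54.3 at 24 h and 51.8 to 53.3 at 48 h, and the 0 h range did not overlap with the later ones. Summing each gene with its copies, an alternative added after the data were seen, again called mt-Nd3 alone at 24 h (-0.77, adjusted p = 0.0247) and 48 h (-0.66, adjusted p = 0.025). At 0 h Gm28438 held 4221, 6883 and 5358 counts, close to 3549, 6351 and 4701 for mt-Nd3. A sum of 2 such similar sets of counts cannot decide how the reads were assigned.

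The order of the mitochondrial levels at 0 h ran from mt-Co1 at 7875 CPM per kb over mt-Co2 at 6738, mt-Atp6 at 6034 and mt-Co3 at 4853 to mt-Cytb at 2185. These encode the core subunits of complex IV, subunit a of complex V, which carries the proton path, and cytochrome b of complex III. The complex I genes followed, with mt-Nd1 at 1267, mt-Nd4 at 1085, mt-Nd4l at 928, mt-Nd2 at 769, mt-Nd3 at 738, mt-Nd6 at 569 and mt-Nd5 at 538 CPM per kb, and mt-Atp8 came last at 324. The transcripts of mt-Co2, mt-Atp6, mt-Co3, mt-Nd3 and mt-Nd4l match copies over all of their windows, and that of mt-Nd4 over 62.3%. Whether a read that matches a gene and its copy was counted to either or to both was not stated. In 0 h replicate 1, mt-Atp6 held 77275 counts and its copy Gm10925 103765, mt-Co2 held 86670 and Gm28661 86977, and mt-Co3 held 63440 and Gm28437 63671. In the same library mt-Nd4l held 5557 and Gm10222 5620, and mt-Nd3 held 3549 and Gm28438 4221. The order of these genes against those with few or no copies thus depends on how such reads were assigned. mt-Atp8 shares 21.1% of its exon bases with mt-Atp6, and mt-Nd6, the sole one of the 13 on the other strand, overlaps mt-Nd5, so reads in those stretches could belong to either.

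mt-Co3 came nearest to a call among the others, at 3957, 3723 and 3734 CPM at 0 h, 2126, 2965 and 2993 at 24 h and 3001, 2433 and 4043 at 48 h. At 24 h its libraries were below all of those at 0 h (-0.49 ± 0.15, adjusted p = 0.054, edgeR), and at 48 h the groups overlapped. mt-Cytb had the largest positive log2 fold changes against 0 h, 0.23 ± 0.21 and 0.43 ± 0.26, and mt-Nd6 the most negative one at 48 h, -0.89 ± 0.52, but their adjusted p were 0.494, 0.258 and 0.239. From 24 h to 48 h the 13 values ran from -0.52 for mt-Nd6 to 0.39 for mt-Nd1. Without 48 h replicate 2, 1 gene, mt-Nd4l, was called higher in that comparison.

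Nuclear respiratory factor 1 (NRF1), GABPA and YY1 are known to act on this gene set, and motifs for them were found in part of the promoters of the nuclear genes. RefSeq promoters (GRCm38.p6, 250 bases before to 50 after the start) were on hand for 68 of the 84 nuclear members, with 73 start sites in all, and for 32851 start sites of all genes. On either strand, a loose form of the NRF1 site (GCGC, any 2 bases, then GCGC) was found in 26% of member promoters and 6.23% of all, CCGGAAG, the core of ETS factors such as GABPA, in 21.9% and 8.86%, and AAGATGGC, the core of the YY1 site, in 13.7% and 2.75%. Among the 21263 promoters of protein-coding genes these shares were 8.57%, 11.6% and 3.05%. Any of the 3 was found in 53.4% of member promoters, 16% of all and 20.7% of those of protein-coding genes. At least 1 of these 3 motifs was in the promoters of 9 of the 19 members called at 24 h or 48 h against 0 h that had one, and of 29 of the 49 that were not called. Sites of members that moved are shown with 10 bases on each side where the start allows, motif in capitals, in the direction of the gene.
Atp5c1: ctgagctcccGCGCACGCGCactgagt
Atp5h: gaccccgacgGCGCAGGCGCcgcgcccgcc
Atp5h: aaggagagaaCTTCCGGcaactctctt
Ndufb4: gagaagcagtGCGCACGCGCagaatacgcg
Ndufs3: ccgcgtccgcCCGGAAGaagagtcact
Ndufb7: cctagatgacCCGGAAGacactgaagg
They lie at chr2:10080433-10080459, chr11:115420041-115420070, chr11:115419941-115419967, chr16:37654540-37654569, chr2:90904732-90904758 and chr8:83566728-83566754, in that order. The windows of Ndufs3 and Ndufb7 hold the same ETS core, while Ndufs3 was called lower and Ndufb7 higher at 48 h. A match describes the letters and not a bound site.

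Genes that work beside the subunits were looked at as lists, whose counts stand beside 25.5%, 31.6% and 21.3% of all genes called in the 3 comparisons. Of 45 assembly factors tested, 3 were called by 24 h (1 higher), 8 by 48 h (2 higher) and 3 from 24 h to 48 h (all lower), or 6.67%, 17.8% and 6.67%. The calls by 24 h were 0 without 0 h replicate 2 or any 1 of the 24 h libraries and 5 without 0 h replicate 3, and those by 48 h were 3 without 0 h replicate 2 and 2 or 3 without any 1 of the 48 h libraries. Timmdc1, which is needed to build the membrane arm of complex I, fell in every comparison, from 67.9, 79.6 and 84.5 CPM over 54.8, 54.2 and 55.1 to 39.7, 45.1 and 40.3 (48 h against 0 h -0.89 ± 0.13, adjusted p = 0.00183, edgeR). Surf1, a complex IV factor, was called lower at 48 h against 0 h (-0.82 ± 0.14) and against 24 h (-0.65 ± 0.11). Cox18, which helps insert a mitochondrial complex IV subunit, was lower at both times (-0.35 and -0.36), while the ATP synthase factor Atpaf2 was higher at 24 h (0.39) and Ecsit and Coa7 at 48 h (0.56 and 0.46).

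The 29 tested genes for replication and expression of mitochondrial DNA gave 1 call by 24 h and 3 by 48 h, all lower, and 8 from 24 h to 48 h, 2 of them higher, or 3.45%, 10.3% and 27.6%. Against 0 h, both counts were 0 without 0 h replicate 2 or any 1 of the later libraries, they were 3 and 6 without 0 h replicate 1, and the first was 5 without 0 h replicate 3. From 24 h to 48 h, between 1 and 4 were called without any 1 library other than 48 h replicate 2, without which 7 were. Polg2, the accessory subunit of the mitochondrial DNA polymerase, fell from 17.5, 21.3 and 21.6 CPM to 14.6, 13.5 and 12.1 and then 13.5, 14.3 and 15.6 (-0.57 ± 0.15, adjusted p = 0.0265, and -0.48 ± 0.14, adjusted p = 0.0347, edgeR). Fastk, an RNA-binding protein of mitochondria, was called lower at 48 h (-0.62) and from 24 h to 48 h (-0.50), as was Slirp from 24 h to 48 h (-0.54), while Mterf2 and Fastkd1 were higher then (0.87 and 0.29). Tfam and Polrmt, the core of mitochondrial transcription, were not called in any comparison, with means of 53.9, 46.6 and 53.8 CPM for Tfam.

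Of 14 regulators of mitochondrial biogenesis tested, 4 were called by 24 h (1 higher), 3 by 48 h (1 higher) and 6 from 24 h to 48 h (3 higher), or 28.6%, 21.4% and 42.9%. Their calls by 24 h were 2 without 24 h replicate 1 or 2, those by 48 h were 5 without 0 h replicate 3, and those from 24 h to 48 h were 3 without replicate 1 of either group, with 2 to 6, 3 to 5 and 3 to 6 over all such fits. Esrrb, an orphan receptor also known from stem cells, dropped in steps from 44.9, 51.0 and 51.5 CPM over 27.2, 23.5 and 22.4 to 15.5, 17.8 and 17.7 (-0.99 ± 0.13 and -1.53 ± 0.12, adjusted p = 0.00149 and 0.000116, edgeR). Ppard fell at both times (-0.92 and -0.91) and Esrrg at 24 h (-1.61, at 1.52 CPM or less on average), and Nrip1, a corepressor, rose from 4.43, 3.82 and 1.89 CPM to 9.53, 10.5 and 8.01 and, in the 48 h libraries, 8.95 to 11.7 (1.48 ± 0.32 and 1.64 ± 0.31). From 24 h to 48 h Sirt1 and Gabpb1 were higher (0.40 and 0.33) and Esrra was lower (-0.88). The summed level of all 15 was 882 ± 28.0, 925 ± 67.2 and 981 ± 47.9 CPM (SD, n = 3) in the order of time.

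Of the 19 genes of the tricarboxylic acid cycle and pyruvate oxidation, 4 were called by 24 h (1 higher), 10 by 48 h (1 higher) and 5 from 24 h to 48 h (2 higher), or 21.1%, 52.6% and 26.3%. By 24 h 9 were called without 0 h replicate 1 and 2 without any 1 of the 24 h libraries, and by 48 h 4 were called without 0 h replicate 2 and 3 to 5 without any 1 of the 48 h libraries. From 24 h to 48 h the count was 3 when 24 h replicate 1, 48 h replicate 1 or 48 h replicate 3 was left out. Their summed level was 2723 to 3151 CPM at 0 h, 2558 to 2656 at 24 h and 2355 to 2457 at 48 h, with no overlap between the groups. Pdha1, a subunit of pyruvate dehydrogenase, read 70.1, 79.1 and 78.2 CPM at 0 h, 37.7, 38.8 and 40.6 at 24 h and 49.8, 48.8 and 50.7 at 48 h, so it was lowest at 24 h (-0.94 ± 0.10, adjusted p = 0.000704) and rose from there (0.34 ± 0.07, adjusted p = 0.00829, edgeR). Fumarase (Fh1) was lower at both times (-0.51 and -0.72), and Idh3b and Idh3g, subunits of isocitrate dehydrogenase, were lower at 48 h (-0.77 and -0.57). Dld, a subunit shared by several of these complexes, was higher at 48 h than at 24 h (0.34). Suclg2, of the GTP-forming succinyl-CoA ligase, went the other way, from 37.3, 37.4 and 37.0 CPM to 56.3, 59.0 and 56.2 and 47.1, 51.5 and 50.6 (0.63 ± 0.10 and 0.42 ± 0.10).

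Of the 24 carriers of electrons and nucleotides, 9 were called by 24 h (4 higher), 7 by 48 h (3 higher) and 8 from 24 h to 48 h (1 higher), or 37.5%, 29.2% and 33.3%. By 24 h 4 were called without 0 h replicate 2, 24 h replicate 1 or 24 h replicate 2, and by 48 h 5 to 10 were called over all fits without 1 library. From 24 h to 48 h the count was 3 and 1 without 24 h replicates 1 and 3, and 0, 4 and 2 without 48 h replicates 1, 2 and 3. Slc25a5, an ADP/ATP carrier through which the product of complex V leaves the mitochondrion, read 124, 157 and 185 CPM at 0 h, 61.3, 58.5 and 73.9 at 24 h and 54.0, 51.4 and 52.6 at 48 h (-1.25 ± 0.17, adjusted p = 0.00167, and -1.56 ± 0.15, adjusted p = 0.00035, edgeR). Vdac1, a pore of the outer membrane, fell alike from 71.1, 72.6 and 77.5 CPM to 35.1, 41.8 and 48.5 and 33.4, 31.6 and 33.2 (-0.81 ± 0.14 and -1.17 ± 0.10). Coq8b, an atypical kinase of ubiquinone synthesis, rose from 7.05, 9.18 and 9.17 CPM to 19.9, 21.8 and 23.2 and 18.5, 18.1 and 15.3 (1.36 ± 0.15 and 1.03 ± 0.16), and Etfb, which feeds electrons from fatty acid oxidation to ubiquinone, rose with 1.15 ± 0.18 and 0.76 ± 0.17. Coq3 and Cyct, the testis form of cytochrome c, were lower from 24 h to 48 h (-0.43 and -0.41), and Pdss2 was higher (0.44).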

How the data were processed

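Poly-A RNA of 9 libraries had been sequenced with random priming on an Illumina NovaSeq. The submitters' processing notes name fastp, HISAT2, featureCounts and GRCm38, and the deposited values are raw read counts per Ensembl gene, 1 file per library. Versions, the annotation release, strand and the treatment of multi-mapping reads are not given in the sources used here. Symbols, lengths and positions came from GENCODE M21 (GRCm38), which lacked 849 of 46078 IDs, holding at most 0.121% of a library's counts.

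Each comparison was fitted on the 6 libraries of its 2 groups with edgeR 4.0.16 (R 4.3.3): filterByExpr, TMM, glmQLFit and the two-sided glmQLFTest, Benjamini-Hochberg adjustment over all genes tested and a threshold of 0.05. The study used DESeq2, tried here (1.42.0) as an alternative. SE is the absolute log2 fold change over the root of F. Transcript windows of 75 bases were matched with BLAST 2.17.0 at 97% identity in steps of 25 bases. The fit was tested on simulated data. P-values measure the spread between these libraries of 1 cell line.

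The members and lists were chosen with earlier results of these data known. Named were the 13 mitochondrial genes, the 5 largest called rises and falls per comparison with at least 10 CPM, isoforms of 1 subunit, complex II, the most abundant nuclear gene per length of each complex, and the 2 largest called rises and falls per related list. Cox6c2, Atp5s, Ndufa4, Cox7c, Cox6c, Atp5j, Ndufa6, Ndufa7, Ndufb5, Ndufs4, Ndufa12, Uqcrb, Tfam and Polrmt were named outside that rule, after their values were seen.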

Additional observations from a re-analysis of the deposited data

How the results depend on the processing

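Of 75 counts of called members under another setting, 48 stayed within 1.5 times the reported one. With GC and length offsets, nuclear calls at 24 h against 0 h were 14, and mitochondrial calls were 1 there (mt-Co3), 6 at 48 h against 0 h and 1 at 48 h against 24 h, with 36.2%, 43.1% and 20.9% of all genes called. Fitting all 9 libraries together gave nuclear calls of 14 at 24 h against 0 h and 0 at 48 h against 24 h (31.5% and 5.71% of all genes). Requiring a fold change over 1.3 left 0, 4 and 0 nuclear calls (24 h against 0 h, 48 h against 0 h, 48 h against 24 h) and 0 mitochondrial ones in both comparisons with 0 h (15%, 19.7% and 3.50% of all genes). Without a filter there were 2 mitochondrial calls at 24 h against 0 h (13.4% of all genes), and 23 nuclear and 6 mitochondrial calls at 48 h against 24 h (14.0%). DESeq2 called 2 mitochondrial genes at 24 h against 0 h (28.5% of all genes). Library size as the only scaling gave 0 mitochondrial calls in both comparisons with 0 h (27.3% and 32.5% of all genes). Leaving out members that share over 20% of their windows left 5 mitochondrial genes. It removed mt-Nd3 itself, so that 0 calls in both were fixed beforehand (25.5% and 31.6% of all genes). The cause of the other shifts was not tested.

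Whether equal replicate numbers mark paired libraries is not stated. Correlations of deviations from the group mean ran from -0.28 to 0.20 for same-numbered libraries and from -0.39 to 0.38 for differently numbered ones. With 3 libraries per group such values cannot decide whether the libraries were paired. With a replicate block, nuclear calls were 4, 7 and 4 in the order above (17.1%, 22.6% and 14.3% of all genes) and the mitochondrial call at 48 h against 0 h was lost (0). With the block and GC and length offsets together, nuclear calls were 14 at 24 h against 0 h and 5 at 48 h against 24 h, mitochondrial calls were 4, 7 and 4 (30.7%, 38.9% and 15.9% of all genes), and mt-Nd2 (-0.22, adjusted p = 0.0478) and mt-Nd4 (-0.38, adjusted p = 0.0389) turned to lower calls at 48 h against 24 h (edgeR).

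Leaving out 1 library at a time, nuclear calls ranged from 2 to 20, from 3 to 43 and from 3 to 21, and mitochondrial calls from 0 to 1 in each comparison. Of the 10, 21 and 10 members called, 1, 3 and 3 were called in every such fit: Atp5h at 24 h, Atp5c1, Atp5h and Cox5a at 48 h, and Uqcrq, Cox7a2l and Ndufs3 from 24 h to 48 h. The 0 h libraries differed by transcript length, and the part of this in the calls was not tested.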
